A study of Mus musculus with 2 samples.

Results

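The genes described here are the Six-Eya-Dach genes, 8 of the 27998 gene rows in the deposited matrices, taken by symbol: the homeodomain transcription factors Six2, Six4 and Six5, the cofactors Eya1, Eya2, Eya3 and Eya4, and the corepressor Dach1. Each symbol had 1 row. They were measured in single mesodermal cells of Swiss Webster mouse embryos at embryonic day 9.5 (E9.5), with the question of how gene expression differs when Tbx1 is inactivated in the mesoderm. Both groups carried Mesp1Cre, which acts in early mesoderm, and 1 copy of the Rosa26-GFPflox reporter, which marks cells in which Cre has acted, so neither group is free of Cre. The group called Ctrl is Mesp1Cre;Rosa26-GFPflox/+, and the group called cKO carries Tbx1flox/flox in addition. The pharyngeal apparatus and heart of pooled embryos were dissected, live GFP-positive cells were sorted, and the 3′ ends of transcripts were counted as unique molecular identifiers (UMIs) in a droplet instrument. Per the study's sample summary each pool held few embryos, and those of the group called cKO were slightly further in development by somite count. The part of this stage difference in the results was not tested.

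Six-family, Eya and Dach proteins form a network first worked out in eye development and used again in kidney, ear, muscle and pharyngeal tissue. Six-family proteins bind DNA through a homeodomain but activate transcription weakly by themselves. Eya proteins, which are also phosphatases, join them as coactivators, and Dach proteins, relatives of the Ski family, act as corepressors on shared targets. In the head and pharynx the network is known for its part in branchiomeric muscle and in derivatives of the pharyngeal arches.

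With 1 library a group, nothing below has a replicate check or a test of genotype, and every comparison is of these 2 libraries rather than of the conditions. After filtering, 6591 cells were kept from the library labelled Ctrl and 8969 from the library labelled cKO, with medians of 16854 and 14192 UMIs per cell. The libraries shared 15 cell barcodes, 0.202% of those labelled Ctrl and 0.146% of those labelled cKO. Clusters were rebuilt without the 8 genes and named from marker lists, which gave 8 named classes and 7 unnamed clusters with at least 100 cells in each library. These are called populations below. MLP-like cells are those nearest to multilineage primed progenitors of the cardiopharyngeal mesoderm, BrM-like cells to branchiomeric muscle progenitors, pSHF-like cells to the posterior part of the second heart field, SoM/aSHF-like cells to its anterior part with somatic mesoderm and CM-like cells to cardiomyocytes. The pharyngeal mesenchyme-like class carried all 8 markers on its list, Crym, Ebf2 and Tgfbi among them, and every named class had at least 70% of its list. Of cells that the sort should remove, 6 epithelial markers summed to between 5.98 and 317 CPM (counts-per-million: UMIs of a gene scaled to a fixed total of all UMIs in that population and library) in the 8 named classes labelled Ctrl and to between 11.3 and 465 in those labelled cKO, with Epcam between 0.386 and 7.47. Epcam was lower in the library labelled cKO in MLP-like cells, at 7.47 and 1.69, and in BrM-like cells, at 3.49 and 1.38, as were 4 of the 6 epithelial markers in each of these classes, although their sums were higher. The sums were 49.5 and 59.5 in MLP-like, 11.9 and 26.7 in BrM-like, 5.98 and 12.3 in pharyngeal mesenchyme-like and 97.5 and 161 in pSHF-like cells, and highest in SoM/aSHF-like cells, at 317 and 465, and CM-like cells, at 272 and 447. Epcam stood at only 2.56 and 5.01 in SoM/aSHF-like and at 1.24 and 0.655 in CM-like cells. Cdh1, Cldn6 and Cldn7 were at 0 in SoM/aSHF-like cells labelled Ctrl, so the rest of that sum was Krt8 and Krt18. The order of the sums is thus not that of Epcam. For 7 neural crest and neural markers the sums were 10.2 to 21.0 and 9.95 to 25.9. Sox10, Tfap2b and Foxd3, and the epithelial Cdh1 and Cldn6, were at 0 in both libraries in pharyngeal mesenchyme-like cells. Their part in the results was not tested.

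The targeted gene was higher in the library labelled cKO over all kept cells, at 26.5 CPM in the library labelled Ctrl and 44.5 in the other. In MLP-like cells Tbx1 stood at 61.5 CPM (95% interval 57.4 to 65.9) in the library labelled Ctrl and at 121 (116 to 126) in the library labelled cKO, in pharyngeal mesenchyme-like cells at 59.6 and 114, and in BrM-like cells at 121 (114 to 128) and 96.2 (90.4 to 102). It was lower in the library labelled cKO outside counting error in BrM-like and endothelium-like cells alone. Counts from the 3′ end cannot separate intact from recombined Tbx1 transcripts, so the groups are called by their labels. Levels are in CPM, and their intervals, like all below, cover counting error only. Ratios are given as log2 of cKO over Ctrl, and a ratio is called outside counting error where its 95% interval excludes 0. Since a 3′ count does not grow with transcript length and was not scaled by it, levels were compared between populations and libraries for 1 gene at a time and not between genes.

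Six2, a factor known for keeping progenitors undifferentiated in the kidney and for its expression in pharyngeal and facial mesenchyme, had the largest ratio between the libraries of the members that passed the filter in each of its 3 main classes. The filter kept genes with a mean of at least 10 CPM over both libraries. The Ctrl-labelled library had it at 52.9 CPM (49.0 to 56.9, 701 UMIs) in MLP-like cells, 45.0 (39.4 to 51.1, 233 UMIs) in pharyngeal mesenchyme-like cells and 22.8 (19.96 to 26.0, 229 UMIs) in BrM-like cells. In the cKO-labelled library the same classes stood at 27.6 (25.3 to 30.004, 539 UMIs), 14.2 (11.6 to 17.3, 104 UMIs) and 11.6 (9.68 to 13.8, 126 UMIs). In none of these 3 classes did the intervals of the 2 libraries overlap, and the library labelled cKO was lower in each. On the log2 scale the ratio came to −0.94 (−1.10 to −0.77) in MLP-like cells, −0.97 (−1.30 to −0.65) in BrM-like cells and −1.66 (−2.01 to −1.32) in pharyngeal mesenchyme-like cells, where only 0.364% of the 7416 genes tested had a lower ratio. The ratio in pharyngeal mesenchyme-like cells was lower than in MLP-like cells by a log2 difference of 0.72 (approximate interval 0.35 to 1.09), while MLP-like and BrM-like cells differed by 0.03 (−0.32 to 0.39).

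Outside these classes the libraries did not differ in one direction. Cluster 12, led by Barx1, Ifitm1 and Foxf1, had 11.8 (9.03 to 15.2) and 16.3 (13.1 to 19.96) CPM, a log2 ratio of 0.46 (−0.02 to 0.95). Its Ctrl level was below those of the 3 classes, while its cKO level was second only to MLP-like cells and overlapped those of pharyngeal mesenchyme-like cells within counting error. Cluster 14, led by Cbr3, Lum and Foxd1, had 9.32 and 9.29. In pSHF-like cells the level was 6.24 (5.20 to 7.41) against 4.25 (3.35 to 5.32), a log2 ratio of −0.55 (−0.98 to −0.13) that was −0.05 (−0.83 to 0.72) in cells that had only Y-linked UMIs. In paraxial mesoderm-like cells it was 0.971 (0.419 to 1.91, 8 UMIs) against 3.44 (2.07 to 5.37, 19 UMIs). Six2 was lower in the library labelled cKO in 8 of the 15 populations (7 when centred on the median ratio of tested genes, or without mitochondrial, ribosomal and haemoglobin UMIs), outside counting error in 4 of them, and higher outside counting error in 1. In the other 8 populations, among them CM-like and endothelium-like cells, Six2 stood at 5.44 CPM or less and no ratio was outside counting error.

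The Six2 difference was present in both clusters that made up the MLP-like class, one of which had Six2 among its 10 leading genes although the gene was kept out of the clustering. Cluster 2, led by Irx1 and Prdm1, had 51.1 against 27.5 CPM, and cluster 11, led by Prdm1 and Rdh10, had 56.8 against 27.8. The libraries held cells of both sexes in unequal parts. Of the pharyngeal mesenchyme-like cells, 82 of 313 (Ctrl) and 389 of 589 (cKO) had Xist UMIs and no Y-linked UMI. Within cells with Xist UMIs alone the log2 ratio of Six2 in that class was −1.79 (−2.27 to −1.31), and within cells that had only Y-linked UMIs −1.83 (−2.62 to −1.11). In MLP-like cells the corresponding values were −0.98 (−1.21 to −0.75) and −1.02 (−1.30 to −0.75), so the difference was about as large within each kind of cell. In BrM-like cells they were −0.79 (−1.22 to −0.37) and −1.49 (−2.15 to −0.86).

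Six4, a broadly expressed factor that acts beside other Six-family proteins at the start of myogenesis, was spread over the mesoderm. Its highest levels in the library labelled Ctrl were 48.4 CPM (42.6 to 54.8) in pharyngeal mesenchyme-like cells, 43.5 (39.6 to 47.8) in BrM-like cells and 43.3 (39.0 to 48.1) in paraxial mesoderm-like cells, which did not differ beyond counting error. The lowest were 9.06 (6.58 to 12.2) in CM-like and 7.93 (5.90 to 10.4) in endothelium-like cells. In the cKO-labelled library the order was led by BrM-like cells at 41.2 (37.5 to 45.2) and closed by CM-like cells at 7.60 (5.77 to 9.82). Six4 was lower in the library labelled cKO in 15 of 15 populations (13 after centring), outside counting error in 10. In MLP-like cells the levels were 34.5 (31.4 to 37.8) and 31.1 (28.7 to 33.7), and in BrM-like cells the log2 ratio was −0.08 (−0.27 to 0.11), both inside counting error. The ratio was −0.72 (−0.92 to −0.51) in pSHF-like cells, at 28.1 against 17.1, and −0.71 (−1.002 to −0.43) in paraxial mesoderm-like cells, at 43.3 against 26.4. The latter class had 320 cells with Xist UMIs alone and 76 with Y-linked UMIs alone in the library labelled Ctrl, and 35 and 236 in the library labelled cKO. Within these the Six4 ratio was −0.10 (−0.82 to 0.54) and −0.94 (−1.42 to −0.45). The difference between the log2 ratios of MLP-like and pSHF-like cells was 0.57 (approximate interval 0.30 to 0.84). For Six2 the same difference was −0.39 (−0.83 to 0.05).

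Six5, a factor encoded beside the myotonic dystrophy kinase gene, was low in every population. Its levels ranged from 5.83 to 14.5 CPM in the library labelled Ctrl and from 2.82 to 9.19 in the library labelled cKO, and most neighbours in that order overlapped. It was lower in the library labelled cKO in 14 of 15 populations, outside counting error in 6. In pSHF-like cells the levels were 10.52 (9.17 to 12.0) and 5.48 (4.45 to 6.68), a log2 ratio of −0.94 (−1.30 to −0.59), and in MLP-like cells 9.501 (7.91 to 11.3) and 6.50 (5.42 to 7.73), a ratio of −0.55 (−0.92 to −0.18). Cluster 14 was the exception, with 8.25 and 8.48.

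**Figure D1:**
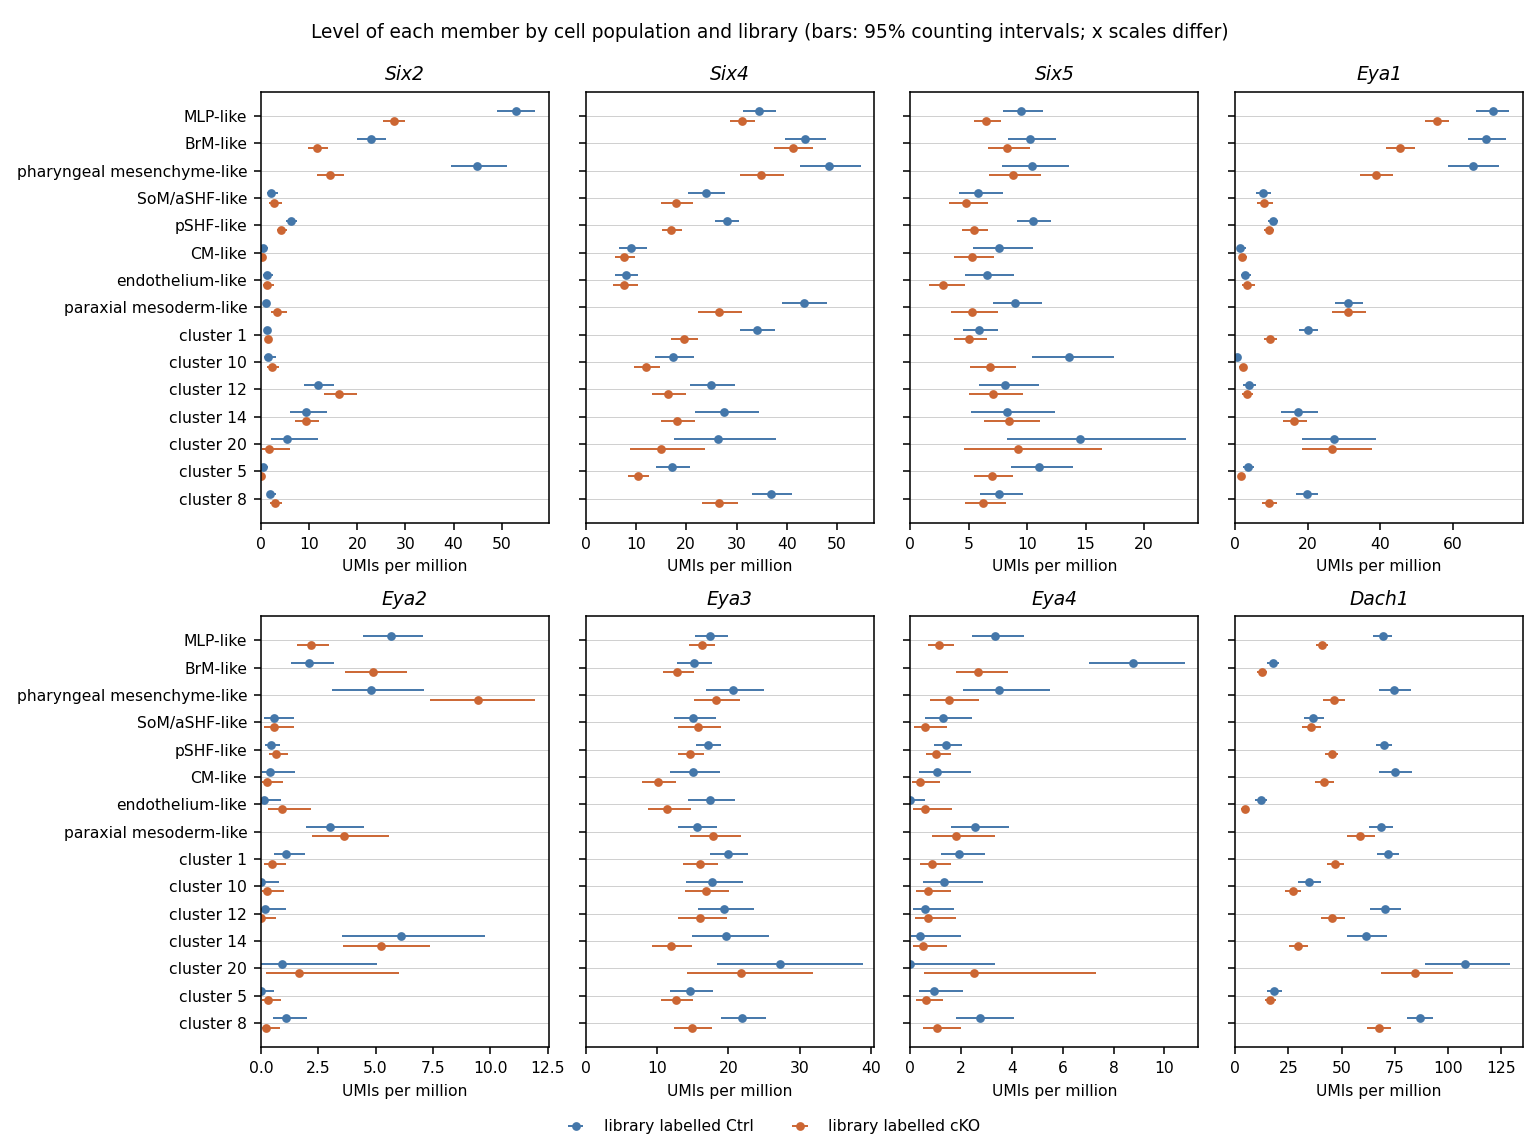
Level of each of the 8 genes, in CPM on a linear axis that differs by panel, for the 15 populations (rows) in the library labelled Ctrl (blue) and the library labelled cKO (orange), with 95% counting intervals as bars. The blue points of Six2 and Eya1 stand highest in the MLP-like, BrM-like and pharyngeal mesenchyme-like rows, Dach1 is low in BrM-like and endothelium-like cells, and for Six4 and Dach1 the orange point lies left of the blue one in all 15 rows (13 and 14 when centred on the median of tested genes).

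The starts of 3 of the genes that were lower in the library labelled cKO are shown with the bases around them, since the members that were lower were searched there for short motifs. The sequences are RefSeq's for GRCm38.p6, the build of which mm10 is the primary assembly, and run 5′ to 3′ on the strand of the gene from 250 bases before the start to 50 after it. The searched motifs were the T-box half-site AGGTGT, the core that proteins such as Tbx1 bind, and the MEF3 site TCAGGTTTC, which Six-family proteins bind in muscle genes. Both strands were searched, and capitals mark a match.
Six2, chr17:85688205-85688504, minus strand: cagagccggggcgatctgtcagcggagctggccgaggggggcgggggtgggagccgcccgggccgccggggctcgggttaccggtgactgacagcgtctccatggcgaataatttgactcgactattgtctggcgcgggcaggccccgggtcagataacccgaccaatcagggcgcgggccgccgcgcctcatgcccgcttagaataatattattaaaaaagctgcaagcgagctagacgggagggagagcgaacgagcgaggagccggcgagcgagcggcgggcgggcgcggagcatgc
Six4, chr12:73113196-73113495, minus strand: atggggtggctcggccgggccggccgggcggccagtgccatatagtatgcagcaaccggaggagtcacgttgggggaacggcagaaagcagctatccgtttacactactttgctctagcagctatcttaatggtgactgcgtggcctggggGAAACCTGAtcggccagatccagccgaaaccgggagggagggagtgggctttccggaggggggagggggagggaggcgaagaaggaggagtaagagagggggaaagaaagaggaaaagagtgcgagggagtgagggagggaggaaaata
Dach1, chr14:98169716-98170015, minus strand: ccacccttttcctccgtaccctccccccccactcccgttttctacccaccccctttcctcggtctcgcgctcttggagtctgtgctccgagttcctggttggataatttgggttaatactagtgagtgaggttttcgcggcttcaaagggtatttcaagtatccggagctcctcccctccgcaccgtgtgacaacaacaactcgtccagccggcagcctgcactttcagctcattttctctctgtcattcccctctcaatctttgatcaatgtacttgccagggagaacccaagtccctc
The table held 8 such windows for 6 of the 8 members, Six2, Six4, Six5, Eya3, Eya4 and Dach1. The MEF3 site was found in 1 of the 8, the Six4 window shown, where it starts 99 bases before the transcription start on which that window is placed and lies on the opposite strand. That start is inside the annotated span of Six4, so the site is too. It was present in 0.429% of all 32851 windows of this length. The T-box half-site was in 0 of the 8 windows and in 13.7% of all windows. A match describes the letters in these windows alone, and its absence says nothing about where the factor binds.

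All 8 genes were found in the RefSeq table of that build. Six2 lies at chr17:85662736-85688254, Six4 at chr12:73099609-73114031, Six5 at chr7:19094544-19098549 and Dach1 at chr14:97786846-98169765. Eya1 lies at chr1:14168953-14311035, Eya2 at chr2:165595028-165771727, Eya3 at chr4:132639025-132724765 and Eya4 at chr10:23102962-23350838. Six4 was the only member that overlapped a gene with its own row in the matrices, Mnat1, and the share of reads that could belong to either was not tested.

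Eya1, the cofactor whose loss causes branchio-oto-renal syndrome in people, was highest in the library labelled Ctrl in the same 3 classes as Six2. The Ctrl-labelled library had it at 70.9 CPM (66.4 to 75.6) in MLP-like cells, 69.1 (64.1 to 74.5) in BrM-like cells and 65.4 (58.6 to 72.8) in pharyngeal mesenchyme-like cells, and these did not differ beyond counting error. The next population, paraxial mesoderm-like cells, had 31.2 (27.5 to 35.3), and CM-like cells had 1.44 (0.579 to 2.97). In the cKO-labelled library the first 3 stood at 55.6 (52.3 to 59.0), 45.5 (41.5 to 49.6) and 38.8 (34.4 to 43.6), each below its counterpart with no overlap. On the log2 scale Eya1 differed by −0.35 (−0.48 to −0.22) in MLP-like cells, −0.61 (−0.77 to −0.44) in BrM-like cells and −0.75 (−0.99 to −0.52) in pharyngeal mesenchyme-like cells. Within MLP-like cells the ratio was −0.13 (−0.31 to 0.05) in cells with Xist UMIs alone and −0.55 (−0.76 to −0.34) in cells that had only Y-linked UMIs. Eya1 was also lower in clusters 1 and 8, both with Gm14226 and Hox genes among their leading genes, at 20.02 against 9.56 and 19.6 against 9.28 CPM. There 0.350% and 0.408% of genes tested had a lower ratio. In paraxial mesoderm-like cells the levels were 31.2 and 31.1, but the ratio was −0.35 (−1.33 to 0.49) in cells with Xist UMIs alone and −0.51 (−0.97 to −0.05) in cells that had only Y-linked UMIs, kinds whose numbers were reversed between the libraries in that class. Over all 15 populations Eya1 was lower in 11 (9 after centring, 10 without mitochondrial, ribosomal and haemoglobin UMIs), outside counting error in 6, and higher outside counting error in 1, cluster 10, at 0.438 (2 UMIs) against 2.05 (15 UMIs).

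Eya3, the most evenly expressed of the Eya cofactors, ranged only from 14.6 to 27.2 CPM over the populations labelled Ctrl and from 10.1 to 21.7 over those labelled cKO. Its levels in MLP-like cells were 17.5 (15.3 to 19.9) and 16.3 (14.5 to 18.2), in BrM-like cells 15.1 (12.8 to 17.8) and 12.8 (10.8 to 15.1), and in pharyngeal mesenchyme-like cells 20.6 (16.9 to 24.9) and 18.2 (15.3 to 21.6). The libraries overlapped in all 3. The ratio was outside counting error in CM-like cells, at −0.58 (−1.06 to −0.09), in endothelium-like cells, at −0.60 (−1.08 to −0.14), and in 3 unnamed clusters. Over the alternatives tried the endothelium-like ratio ranged from −0.75 to −0.18. Its interval spanned 0 in cells with Xist UMIs alone (−1.03 to 0.36), and the CM-like one did in cells that had only Y-linked UMIs (−1.76 to 0.04). Eya3 was lower in 13 of 15 populations (12 after centring).

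Eya2 and Eya4 were rare transcripts and missed the filter of 10 CPM in every population, so their values are given with the UMIs behind them. Eya2, which takes part in myogenesis and in placodes, had 5.66 CPM (75 UMIs) in MLP-like cells labelled Ctrl and 2.20 (43 UMIs) in those labelled cKO, a log2 ratio of −1.36 (−1.94 to −0.80). In BrM-like cells the order was the opposite, 2.09 (21 UMIs) against 4.89 (53 UMIs), a ratio of 1.22 (0.47 to 2.03). In pharyngeal mesenchyme-like cells it was again higher in the library labelled cKO, 4.82 (25 UMIs) against 9.45 (69 UMIs), a ratio of 0.97 (0.29 to 1.69). The 3 classes with the most Six2 and Eya1 thus did not share a direction for Eya2, which was lower in 7 of 15 populations (6 after centring), with 2 outside counting error each way. Within MLP-like cells the ratio was −1.63 (−2.47 to −0.83) in cells with Xist UMIs alone and −0.74 (−1.69 to 0.18) in cells that had only Y-linked UMIs. The same split gave 1.33 (0.33 to 2.42) and 1.13 (−0.37 to 2.81) in BrM-like cells. Among pharyngeal mesenchyme-like cells, where 82 cells labelled Ctrl and 389 labelled cKO had Xist UMIs alone and 200 and 128 had Y-linked UMIs alone, it gave 0.46 (−0.59 to 1.68) and 1.55 (0.51 to 2.62).

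Eya4, a cofactor whose loss causes hearing loss and cardiomyopathy, was highest in BrM-like cells in both libraries. Its level there was 8.77 CPM (7.03 to 10.8, 88 UMIs) for Ctrl, above every other population, and 2.67 (1.79 to 3.84, 29 UMIs) for cKO. The log2 ratio was −1.71 (−2.37 to −1.09) in BrM-like cells, −1.56 (−2.37 to −0.79) in MLP-like cells, at 3.32 (44 UMIs) against 1.13 (22 UMIs), and −1.20 (−2.43 to −0.04) in pharyngeal mesenchyme-like cells, at 3.47 (18 UMIs) against 1.51 (11 UMIs). Over all kept cells it was 2.36 (2.09 to 2.65) against 1.02 (0.861 to 1.21). Eya4 was lower in 11 of 15 populations and outside counting error in 5. It was at 0 UMIs in endothelium-like cells labelled Ctrl (0 to 0.573 CPM) and in cluster 20 labelled Ctrl (0 to 3.34).

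Dach1, the corepressor, was spread differently across populations. In the library labelled Ctrl it was highest in cluster 20, led by Cpa1 and Maf, at 108 CPM (89.4 to 129), and in cluster 8 at 86.9 (80.9 to 93.1), which did not differ beyond counting error. Below them it was near the same level in CM-like cells at 74.9 CPM (67.4 to 83.0), pharyngeal mesenchyme-like cells at 74.9 (67.6 to 82.7), pSHF-like cells at 69.9 (66.3 to 73.6), MLP-like cells at 69.3 (64.9 to 73.9) and paraxial mesoderm-like cells at 68.5 (62.9 to 74.4). BrM-like cells, which were among the highest for Six4 and Eya1, had 17.6 (15.1 to 20.4), and endothelium-like cells 12.0 (9.45 to 15.0). In the cKO-labelled library the levels were 41.8 (37.3 to 46.6) in CM-like, 46.3 (41.5 to 51.5) in pharyngeal mesenchyme-like, 45.3 (42.3 to 48.6) in pSHF-like, 40.9 (38.1 to 43.9) in MLP-like and 12.4 (10.4 to 14.7) in BrM-like cells. Each lay below its counterpart with no overlap. Paraxial mesoderm-like cells had 58.8 (52.6 to 65.6), and SoM/aSHF-like cells 36.8 (32.5 to 41.6) against 35.5 (31.3 to 40.1), where the libraries overlapped.

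Dach1 was lower in the library labelled cKO in 15 of 15 populations (14 after centring), outside counting error in 12. On the log2 scale Dach1 differed by −0.76 (−0.90 to −0.62) in MLP-like cells, −0.84 (−1.06 to −0.62) in CM-like cells and −0.62 (−0.75 to −0.50) in pSHF-like cells. Within MLP-like cells it was −0.98 (−1.18 to −0.78) in cells with Xist UMIs alone and −0.50 (−0.72 to −0.28) in cells that had only Y-linked UMIs, and within pharyngeal mesenchyme-like cells −0.60 (−0.98 to −0.21) and −0.23 (−0.57 to 0.10). In endothelium-like cells, under the filter, the levels were 12.0 (77 UMIs) and 4.50 (24 UMIs), a ratio of −1.41 (−2.14 to −0.73). This value rested on the choice of cells, being −0.26 with presumed doublets kept and −0.01 with every deposited barcode.

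**Figure D2:**
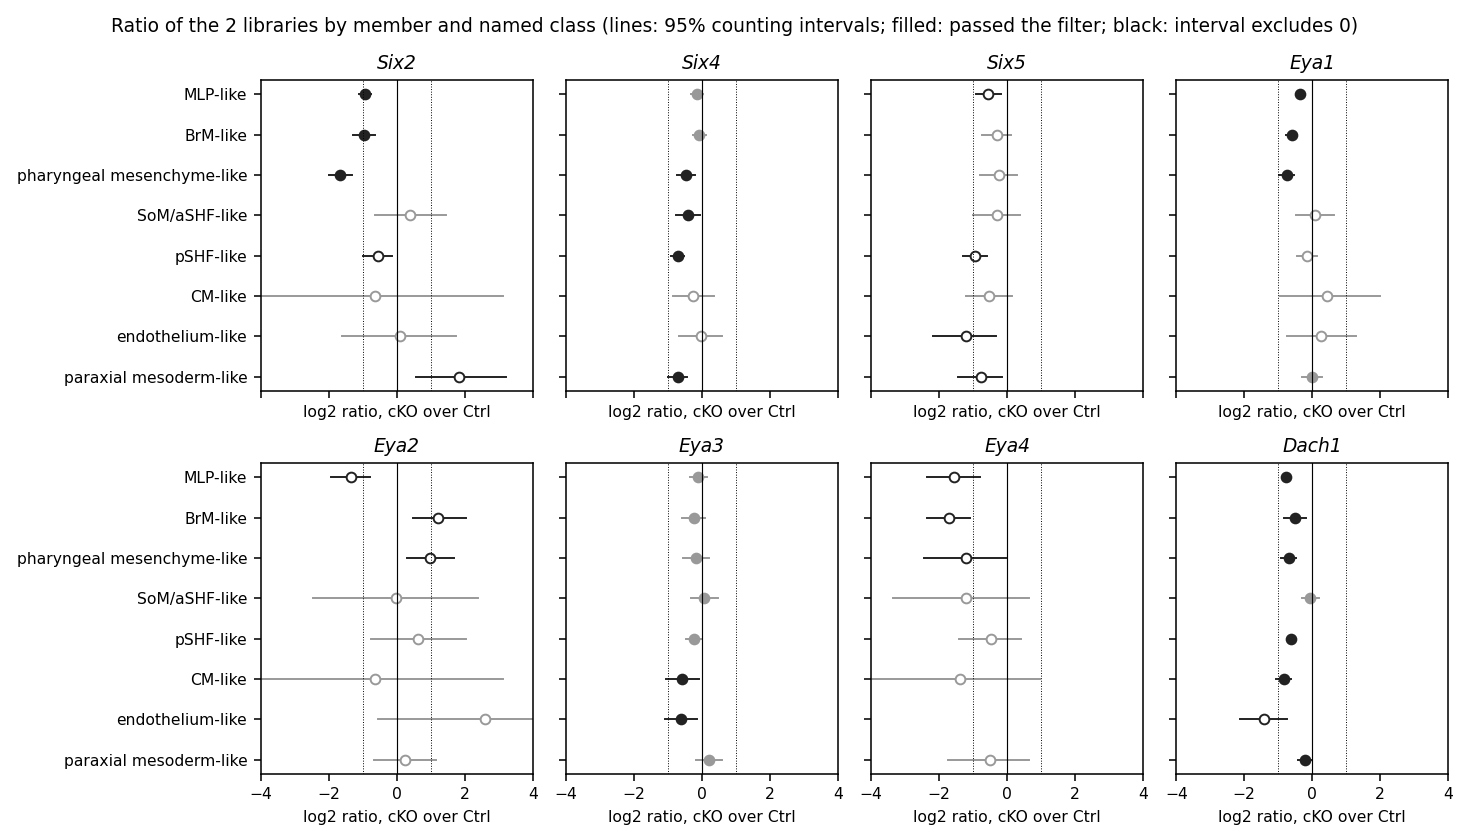
The log2 ratio of the library labelled cKO over the library labelled Ctrl for each of the 8 genes (panels) in the 8 named classes (rows), with 95% counting intervals as lines and dotted lines at a 2-fold difference. Filled points passed the filter of 10 CPM, open points did not, and black marks an interval that excludes 0. Six2 lies left of 0 in the MLP-like, BrM-like and pharyngeal mesenchyme-like rows and right of it in paraxial mesoderm-like cells, and Eya2 lies left in MLP-like and right in BrM-like and pharyngeal mesenchyme-like cells.

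The members were then set beside all genes. In each of the MLP-like, BrM-like and pharyngeal mesenchyme-like classes 5 of 8 members passed the filter, Six2, Six4, Eya1, Eya3 and Dach1, and Six5, Eya2 and Eya4 missed it. Six4 and Eya3 lay within counting error in MLP-like and BrM-like cells, and Eya3 in pharyngeal mesenchyme-like cells as well. In MLP-like cells 0 of the 5 were at least 2-fold lower and 0 at least 2-fold higher, beside 3.37% and 0.803% of all 7351 genes tested. In BrM-like cells the counts were again 0 and 0, beside 3.24% and 1.08% of genes. In pharyngeal mesenchyme-like cells 1 was at least 2-fold lower, Six2, and 0 higher, beside 1.87% and 0.701%. The median log2 ratio over the members that passed was −0.35, −0.50 and −0.69 in the 3 classes, and over all genes tested −0.10, −0.11 and −0.09. Of the genes with at least 10 CPM on average over the 15 populations, 23.8% were lower in the library labelled cKO in every one of them. Of the 4 members in that set, Six4, Eya1, Eya3 and Dach1, this was so for Six4 and Dach1. When each population was centred on the median ratio of its tested genes, the share was 16.9%, Six4 was lower in 13 of 15 and Dach1 in 14 of 15.

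The share of cells with a UMI was compared after each cell had been thinned to 5000 UMIs, because the libraries differed in depth. Shallower cells were left out, 6 and 4 of the MLP-like, 5 and 4 of the BrM-like and 4 and 16 of the pharyngeal mesenchyme-like cells. Six2 was found in 21.5% (18.7 to 24.5) of MLP-like cells labelled Ctrl and in 11.5% (9.72 to 13.4) of those labelled cKO. In pharyngeal mesenchyme-like cells the shares were 18.8% (14.6 to 23.6) and 7.68% (5.63 to 10.2), and in BrM-like cells 8.37% (6.14 to 11.1) and 4.74% (3.31 to 6.56). In endothelium-like cells, taken as a type with little of the gene, the shares were 0.831% and 0.548%, and the shares in the 3 classes stood above that level. It may include free RNA in the droplets, which was not estimated. Median depths before thinning were 14940 and 14886 UMIs in MLP-like cells, 16457 and 13688 in endothelium-like cells, and without thinning Six2 was in 49.8% and 30.7% of MLP-like cells.

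The shares of the other members are given for the classes in which their levels stood out. For Eya1 the thinned shares, Ctrl first, were 28.9% (25.8 to 32.2) and 25.4% (22.9 to 27.9) in MLP-like cells, 28.5% (24.7 to 32.6) and 21.1% (18.1 to 24.2) in BrM-like cells, and 0.376% and 0.431% in CM-like cells. Dach1 was found in 27.8% (24.7 to 31.0) and 16.96% (14.9 to 19.2) of MLP-like cells and in 33.0% (27.8 to 38.6) and 18.8% (15.7 to 22.3) of pharyngeal mesenchyme-like cells, against 5.82% and 2.19% of endothelium-like cells. For Six4 the MLP-like shares were 14.8% and 13.1% and overlapped. Eya4 was found in 4.94% (3.25 to 7.16) of BrM-like cells labelled Ctrl and 1.26% (0.576 to 2.37) of those labelled cKO. The UMIs per thinned cell with Six2 were 1.26 and 1.18 in MLP-like cells and 1.17 and 1.05 in pharyngeal mesenchyme-like cells.

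**Figure D3:**
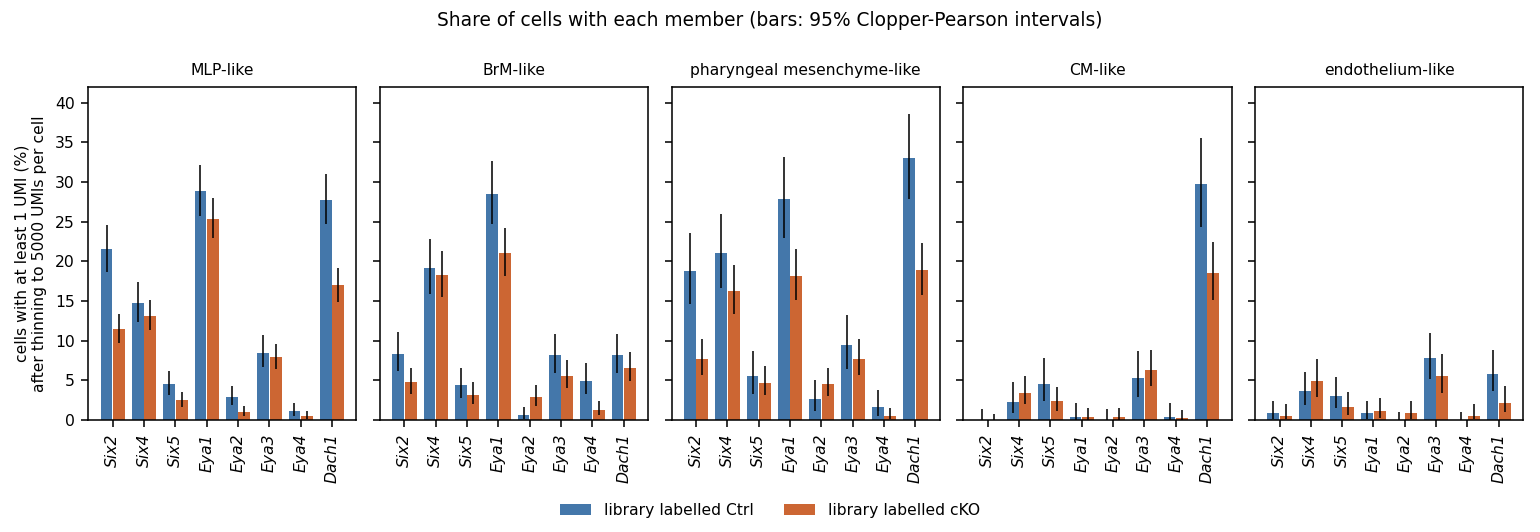
Share of cells with at least 1 UMI of each of the 8 genes after thinning to 5000 UMIs per cell, in 5 named classes, for the library labelled Ctrl (blue bars) and the library labelled cKO (orange bars), with 95% Clopper-Pearson intervals. The Six2 bars of 21.5% and 11.5% in MLP-like cells and of 18.8% and 7.68% in pharyngeal mesenchyme-like cells are separated, and almost no CM-like or endothelium-like cell had Six2.

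Since Eya proteins act through Six-family proteins, cells holding both were counted. A Six-family gene and an Eya gene were found together in 14.5% (12.1 to 17.1) of thinned MLP-like cells labelled Ctrl and 8.15% (6.66 to 9.84) of those labelled cKO. In pharyngeal mesenchyme-like cells the shares were 14.6% (10.8 to 19.0) and 7.50% (5.48 to 9.98), in BrM-like cells 11.4% (8.82 to 14.4) and 7.11% (5.34 to 9.25). No other population labelled Ctrl had a share above 5.04%, which was that of paraxial mesoderm-like cells, and CM-like cells had 0 of 266 (0 to 1.38%). With Dach1 as well the shares in MLP-like cells were 4.25% (2.96 to 5.89) and 0.998% (0.516 to 1.74). All these shares depend on how often each gene was found by itself. Whether a Six-family and an Eya gene shared cells more often than that was not tested.

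Whether cells with Six2 held other members more often was read within MLP-like cells. Among MLP-like cells labelled Ctrl, Eya1 was found in 34.3% (27.2 to 41.9) of the 172 cells with Six2 and in 27.4% (23.9 to 31.1) of those without it. In the cKO-labelled library it was in 28.3% (20.9 to 36.5) of the 138 with Six2 and 25.0% (22.4 to 27.7) of the others. The intervals overlapped in both libraries, also for Dach1, at 27.9% (21.3 to 35.2) and 27.7% (24.2 to 31.4) in the library labelled Ctrl. For Tbx1 the shares with and without Six2 were 30.8% (24.0 to 38.3) and 28.5% (25.0 to 32.2) in Ctrl-labelled MLP-like cells, and 47.8% (39.3 to 56.5) and 38.2% (35.3 to 41.2) in cKO-labelled ones. At 5000 UMIs per cell most transcripts of these genes are missed, and a dependence smaller than these intervals was not detectable.

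**Figure D4:**
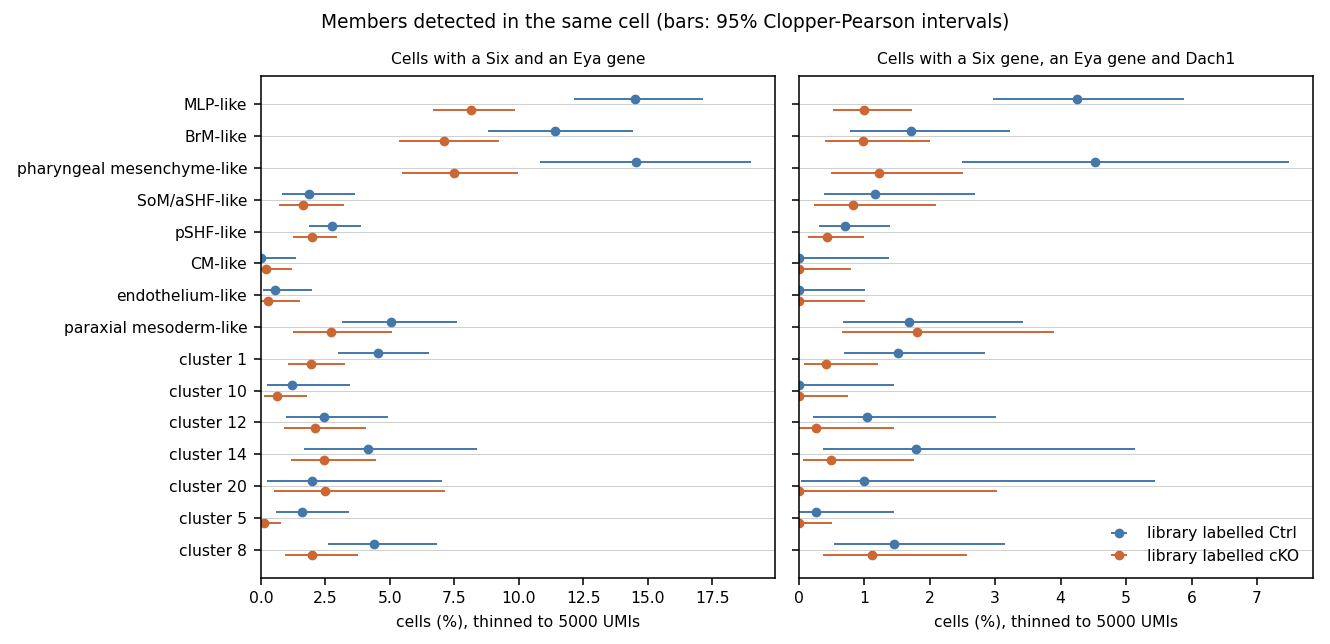
Share of cells in which at least 1 UMI of a Six-family and of an Eya gene was found (left) and of a Six-family gene, an Eya gene and Dach1 (right), in percent after thinning to 5000 UMIs, for the 15 populations (rows) in the library labelled Ctrl (blue) and the library labelled cKO (orange), with 95% Clopper-Pearson intervals. The MLP-like, pharyngeal mesenchyme-like and BrM-like rows hold the highest shares in the left panel, at 14.5%, 14.6% and 11.4% in the library labelled Ctrl and 8.15%, 7.50% and 7.11% in the library labelled cKO.

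Genes around the network were followed from a list of 30: 6 Pax genes that often act upstream, 13 cofactors and corepressors, and 11 genes described as targets of Six-family and Eya proteins. The list was chosen with earlier results of these data known, so its counts are a description only. In MLP-like cells 19 of the 30 passed the filter, 5 were at least 2-fold lower in the library labelled cKO and 1 at least 2-fold higher, beside 3.37% and 0.803% of all genes tested. The targets among the lower ones were Fgf10, at 46.8 against 2.20 CPM (log2 ratio −4.41, −4.89 to −3.96), Fgf8, at 43.7 against 7.26 (−2.59, −2.86 to −2.32), both ligands of the pharyngeal mesoderm, and Slc12a2, a chloride cotransporter, at 132 against 31.6 (−2.06, −2.19 to −1.93). Ezr, which links actin to the membrane, was the other, at 29.3 against 12.9. These 4 are 4 of 7 targets that passed, and Fgf8 is also on the marker list of the class.

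Among the Groucho-related corepressors of that list, Tle1 and Tle4 differed in opposite directions. Tle1 stood at 36.6 against 13.8 CPM in MLP-like cells (log2 ratio −1.41, −1.63 to −1.19) and Tle4 at 26.2 against 74.3 (1.51, 1.34 to 1.68). In BrM-like cells Tle1 was again lower, at 42.04 against 19.2, while Tle4 stood at 121 against 95.5, a ratio of −0.34 (−0.46 to −0.21). The median log2 ratio of the 12 cofactors that passed was −0.50 in MLP-like, −0.48 in BrM-like and −0.21 in pharyngeal mesenchyme-like cells.

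In BrM-like cells 18 of 30 passed, 4 were at least 2-fold lower and 1 higher, beside 3.24% and 1.08% of all genes tested. Beside Tle1 the lower ones were Myf5, the myogenic determination factor and a marker of the class, at 51.4 against 1.29 CPM (−5.32, −6.20 to −4.56), Fgf10 at 55.5 against 1.66, and Slc12a2 at 54.7 against 21.0. Myc was higher, at 16.8 against 41.0 (1.28, 1.03 to 1.55). In pharyngeal mesenchyme-like cells 17 passed, and 1 was at least 2-fold lower and 0 higher, beside 1.87% and 0.701% of all genes tested. This was Slc12a2, at 40.1 against 19.998. Slc12a2 differed less between the libraries here than in BrM-like cells (log2 ratio −1.38) or MLP-like cells (−2.06), while Six2 differed most here. A link between Slc12a2 and Six2 was not tested. None of the Pax genes passed the filter in MLP-like or BrM-like cells. Of those, Pax8 and Pax9 are named after their values were seen: in MLP-like cells Pax8 had 6 UMIs against 371, 0.452 and 19.0 CPM, and Pax9 had 129 against 25, 9.73 and 1.28.

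**Figure D5:**
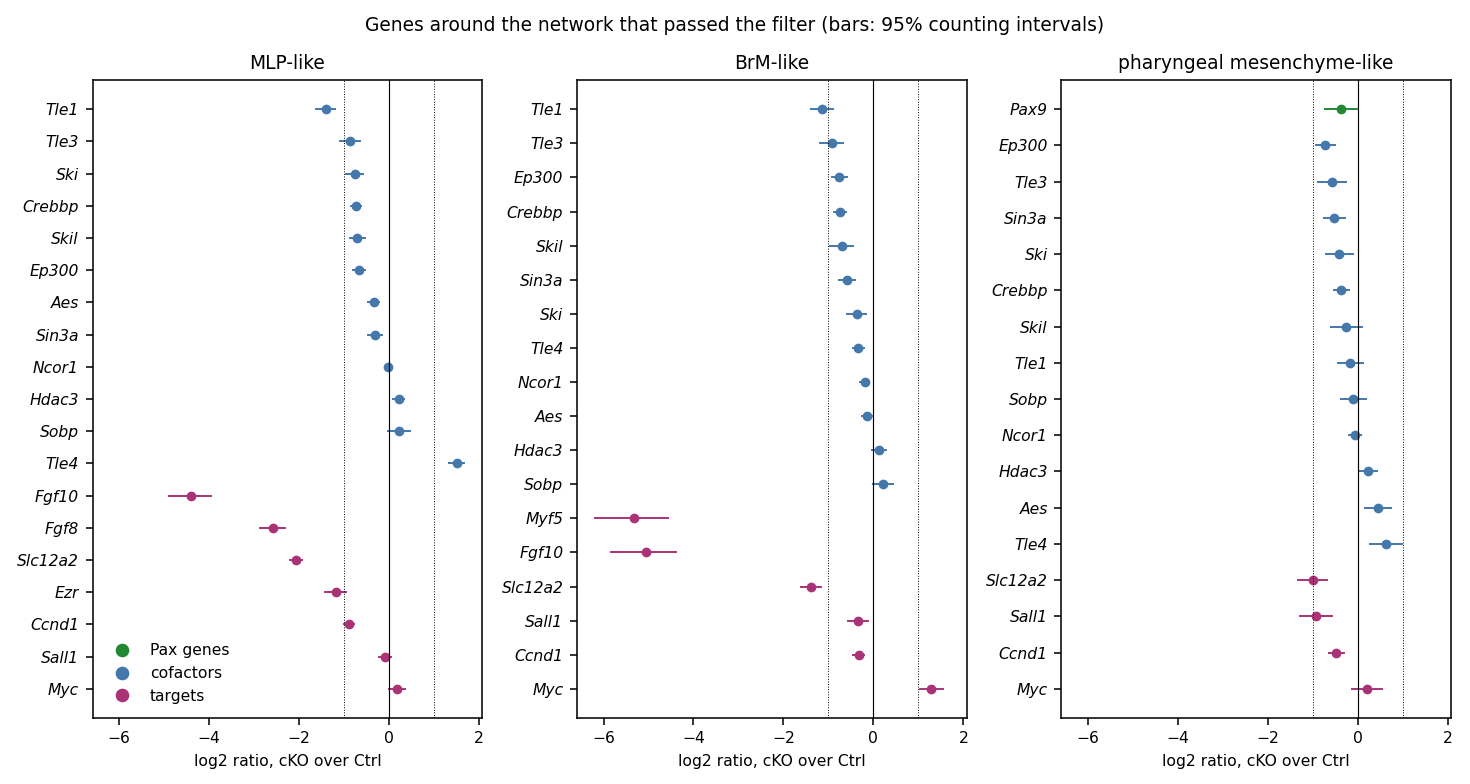
The log2 ratio of the library labelled cKO over the library labelled Ctrl for genes of the 30-gene list that passed the filter, in MLP-like, BrM-like and pharyngeal mesenchyme-like cells, with 95% counting intervals as bars and dotted lines at 2-fold. Fgf10 lies at −4.41 in MLP-like cells, Myf5 at −5.32 in BrM-like cells, and in pharyngeal mesenchyme-like cells all genes but Slc12a2 lie inside the dotted lines.

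The patterns of the members were compared over 30 profiles, the 15 populations in each library, as a description, since profiles share populations, libraries and depth. Among the members Pearson's r of log2(CPM + 5) was highest between Six4 and Eya1, at 0.82, and between Eya1 and Eya2, at 0.75, then 0.68 between Six2 and Eya1. It was lowest between Eya4 and Dach1, at 0.065. Over genes with at least 50 CPM in at least 1 profile, those most like Six2 were Gas2 (0.81), Eif2b2 (0.70) and Eya1, and those most like Eya1 were Col26a1 (0.89), Ebf2 (0.88) and Gas2 (0.87). For Six4 they were Phf6 (0.89), Snhg12 (0.88) and Phip (0.87), for Six5 Kcnq1ot1, Fam193a and Nedd4 (0.85 to 0.86), and for Eya3 Meis2, Gga2 and Ankhd1 (0.75 to 0.78). Ebf2 is a marker of the pharyngeal mesenchyme-like class. With 1 instead of 5 CPM added, Glul took the place of Eya1 as the third for Six2.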

How the data were processed

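One library of 3′ single-cell RNA was made from sorted GFP-positive cells of each group. Per the submitters' processing notes, reads were processed with Cell Ranger 3.1.0 against mm10. The deposited matrices hold raw UMI counts per gene and barcode, made by the authors. The libraries held 7418 and 10281 barcodes with 132017331 and 162874391 UMIs, and the sum in a population sets the precision of each level. Barcodes with under 1000 genes or over 10% mitochondrial UMIs were removed, 411 and 508 in all. Scrublet in scanpy 1.11.5 called 0% and 7.81% by itself, so the highest scores were removed at 0.8% per 1000 barcodes, 416 and 804. Cells were integrated and clustered with Seurat 5.3.0 in R 4.3.3 (2000 variable genes, 30 dimensions, resolution 1), and a second pass left out 954 genes that differed between the libraries. A cluster was named after a marker list where more than 50% of it, and at least 3 markers, were higher there and its 10 leading genes held at least 1 of them and no more of another list. Counts were summed per population and library with numpy 2.4.6, pandas 2.3.3 and scipy 1.17.1. Intervals are exact Poisson for levels, conditional binomial for ratios and Clopper-Pearson for shares, at 95%, and intervals and floors (3 counts) cover counting error only. Intervals of differences between ratios are approximate. The code was tested on simulated data. Figures were drawn with matplotlib 3.10.9.

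The members and lists were chosen with earlier results of these data known. Named genes were the 8 members, genes of the 30-gene list that passed the filter and differed at least 2-fold in the class described, the 3 genes with the highest r to each member that reached 10 CPM, and Tbx1 as the target. Pax8 and Pax9, which missed the filter in MLP-like cells, were named after their values were seen. The genes most like Dach1 are not reported here. Alternatives tried were other cell filters, clusterings, denominators, sex-marked subsets, expression filters and thinning depths. With 1 library per group no count model was fitted and no p-value was computed. The table had 0 columns from other series.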

Additional observations from a re-analysis of the deposited data

Results flagged for a closer look

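The Six2 ratio did not have one direction across classes. The log2 ratio of cKO over Ctrl was −0.94 in MLP-like, −0.97 in BrM-like, −1.66 in pharyngeal mesenchyme-like and −0.55 in pSHF-like cells, each with an interval below 0, and 1.82 in paraxial mesoderm-like cells, with an interval above 0. Restricted to the pSHF-like cells whose sex-linked UMIs were all Y-linked, the ratio there was −0.05 (−0.83 to 0.72). The paraxial mesoderm-like value rests on 8 and 19 UMIs and was 0.82 with every deposited barcode. Of the paraxial mesoderm-like cells, 320 labelled Ctrl and 35 labelled cKO had Xist UMIs and no Y-linked UMI, and 76 and 236 had Y-linked UMIs alone. Six2 had 6 against 3 UMIs in the former, a ratio of 2.54 (−0.09 to 4.77), and 0 against 12 UMIs in the latter.

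Eya2 had opposite directions in classes next to each other in their levels of Six2 and Eya1, with ratios of −1.36 in MLP-like, 1.22 in BrM-like and 0.97 in pharyngeal mesenchyme-like cells. Each of these ratios kept its sign among cells with Xist UMIs alone and among those with Y-linked UMIs alone, but its interval spanned 0 in one of them. The MLP-like ratio lay below the BrM-like one by a log2 difference of −2.59 (approximate interval −3.49 to −1.68) and below the pharyngeal mesenchyme-like one by −2.33 (−3.19 to −1.48). With 1 library per group these differences were not tested beyond counting error.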

How the results depend on the processing

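Of 623 alternative values of single-gene log2 ratios, 607 stayed within the counting interval of the reported value, 16 did not, and 0 of the ratios outside counting error changed direction. The number of members at least 2-fold lower in MLP-like cells was 1 in cells with Y-linked UMIs only and 2 with no filter but 1 UMI, where the median log2 ratio over members was −0.65. In BrM-like cells it was 1 with no integration, in the first clustering pass, in cells with Y-linked UMIs only, with a filter at 5 CPM and with no filter but 1 UMI, which also gave 1 member at least 2-fold higher. In pharyngeal mesenchyme-like cells it was 2 with no filter but 1 UMI. With looser filters more members enter, Eya2 and Eya4 among them. For the rest the cause was not tested. Of the named classes, Six2 stood highest in MLP-like cells under every reclustering tried in both libraries except for every deposited barcode in the library labelled Ctrl, where pharyngeal mesenchyme-like cells led. Leaving out a library was not possible with 1 per group. No paired analysis was possible because each group had 1 library. Depth limits Eya2 and Eya4 most, whose ratios in the 3 classes above rest on 11 to 88 UMIs a library.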
